A study of Rattus with 6 samples.

Results

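The 43 genes described here encode the proteins that copy DNA and the regulators that let a cell pass from G1 into S phase. They were chosen by name, by matching the symbol column of the count table to a fixed list, and all 43 were found among the 21378 genes of that table. The list was made with earlier results of these data known. All 43 also passed the filter on low counts, which left 14412 genes for testing. Polyadenylated RNA was sequenced with a stranded kit from rat cardiac fibroblasts, cells that make the connective matrix of heart tissue, bought as a cell line from a commercial supplier and grown in culture. The libraries comprised 3 titled siCtrl and 3 titled siNONO, the latter given, by lipofection, a small interfering RNA that targets Nono, which encodes a nuclear RNA- and DNA-binding protein. The labels also describe the control cells as having received an empty vector, so what the controls carried is not settled here. The labels give a harvest at 48 h for RT-qPCR and western blotting and no separate time for sequencing. Whether each replicate was its own culture is not stated, so a p-value here reflects the spread among these 6 libraries alone, and that spread may be technical.

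Replication begins when the origin recognition complex, with CDC6 and CDT1, loads the ring-shaped MCM helicase onto DNA in G1. In S phase, CDC45, the GINS complex and MCM10 turn the loaded ring into an active helicase. The polymerases then copy both strands with the help of the PCNA clamp, the RFC clamp loader, a flap nuclease and a ligase. Many of these genes are known targets of the E2F transcription factors, which the RB proteins hold back until cyclin-dependent kinases phosphorylate them, and their mRNAs are therefore often used as a readout of cycling cells. Fibroblasts in culture divide, so these genes are active in them. In a bulk sample, a smaller share of cells in S phase and less RNA per cell cannot be told apart.

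The knockdown was visible in the libraries. Nono stood at 236, 233 and 246 CPM (TMM-scaled read counts, adjusted for the size of each library) in the control libraries and at 69.8, 76.1 and 73.6 CPM in the knockdown libraries, in both cases in the order of replicates 1, 2 and 3 as throughout, which is 30.7% of the control mean. Library totals ranged from 27792357 to 33365588 counts. Fibroblast markers were high in every library, summing over 11 genes to between 35044 and 37623 CPM in siCtrl and between 34195 and 35048 CPM in siNONO. Most of that sum came from Col1a1, Col1a2 and Col3a1. By the test described below, 4 of the 11 fell (Lum, Dcn, Tcf21 and Vim), 1 rose (Ddr2) and 6 did not pass. Of all genes tested, 15.9% fell and 16.2% rose. Lum went from a mean of 35.6 to 18.9 CPM. The summed cardiomyocyte markers (6 of 8 matched, nearly all of the sum from Tnnt2) ran from 145 to 162 CPM in siCtrl and from 109 to 118 CPM in siNONO, with Myh6 at no more than 4 counts and Actn2 and Ryr2 at no more than 3 counts in any library. Leukocyte markers (5 of 6 matched, Cd79a at no more than 3 counts) ran from 111 to 122 and from 103 to 104 CPM, endothelial markers (6 of 6, Emcn at no more than 3 counts) from 16.0 to 17.6 and from 18.0 to 19.6 CPM, and smooth muscle and pericyte markers (6 of 6, Rgs5 at no more than 3 counts) from 27.5 to 29.2 and from 21.3 to 22.3 CPM. Most of the endothelial sum was Tek, which rose by the same test, from a mean of 13.9 to 16.3 CPM. Pecam1 went the other way, from 1.65 to 1.17 CPM, and did not pass. Cdh5 and Vwf had means of only 0.28 and 0.72 CPM over all libraries. Of the leukocyte markers, Csf1r (36.7 to 29.8 CPM) and Adgre1 (31.1 to 22.0 CPM) fell, whereas Ptprc and Itgam did not pass. The part of these marker differences in the results below was not tested.

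The share of replication genes that rose was close to that of all genes, and 1 of them fell. By edgeR's quasi-likelihood test at a Benjamini-Hochberg adjusted p of 0.05 over all genes tested, 7 of the 43 rose in siNONO (Mcm2, Mcm4, Mcm6, Mcm10, Gins3, Rfc2 and Rrm1), 1 fell (Tyms) and 35 did not pass, where 32.1% of all genes tested passed in either direction. The share raised, 16.3%, lay beside a background of 16.2% of all 14412 genes, and the share lowered, 2.33%, beside 15.9%. The median log2 fold change (siNONO minus siCtrl, here and throughout) was 0.02 over the 43 genes, with a range from -0.24 to 0.49, and 0.00 over all genes tested. The values of the groups did not overlap for 14 of the 43: for 10 with siNONO higher (background 22.9%) and for 4 with siNONO lower (background 22.1%). With scaling by total library size alone, which split all calls into 3174 raised and 1673 lowered against 2338 and 2292 with TMM, 11 of the 43 rose and 1 fell.

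**Figure D1:**
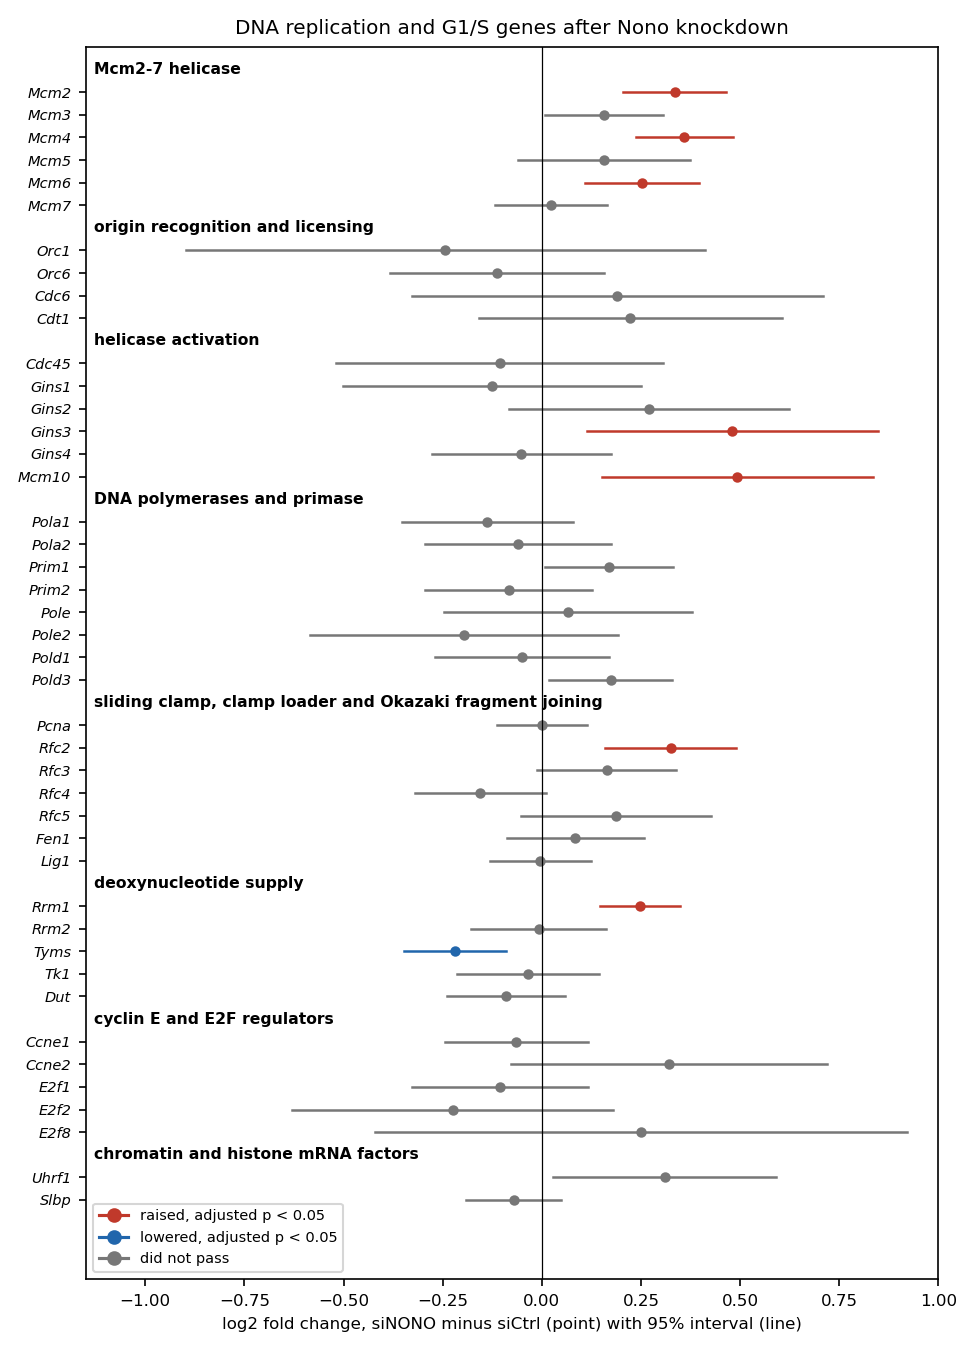
Log2 fold change of each of the 43 genes (horizontal axis, siNONO minus siCtrl; point, with its 95% interval as a line), grouped by role. Red marks the 7 raised genes, blue the lowered gene Tyms and grey the 35 that did not pass; the intervals widen for genes of low level such as Orc1 and E2f8.

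How small a change could be called depended on the level of the gene. The 17 members with a mean of at least 10 CPM had standard errors (SE) of the log2 fold change from 0.05 to 0.08; 5 of them rose and 1 fell, beside 18.7% raised and 15.4% lowered among all genes of 10 to 50 CPM. The 26 members under 10 CPM had standard errors from 0.08 to 0.31; 2 of them rose and 0 fell, beside 8.93% raised and 9.36% lowered among all genes under 10 CPM. For the less abundant members a missed call therefore leaves a wide interval, and intervals are given below for several of them.

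The MCM helicase ring has 6 different subunits, of which Mcm2, Mcm4 and Mcm6 rose, by 1.19- to 1.28-fold, and Mcm3, Mcm5 and Mcm7 did not pass. Among all genes tested, 16.2% rose and 15.9% fell. Mcm4 (chromosome 11) was at 22.1, 24.5 and 22.1 CPM in siCtrl and at 29.7, 28.6 and 29.8 CPM in siNONO. Mcm2 (chromosome 4) was at 20.4, 22.2 and 20.6 CPM in siCtrl and at 25.3, 26.4 and 28.1 CPM in siNONO. Every siNONO library lay above every control for both genes. Mcm4 went from 22.9 ± 1.37 to 29.4 ± 0.673 CPM (SD, n = 3 each), which is 1.28-fold, or 0.36 on the log2 scale with an SE of 0.06 (edgeR adjusted p = 0.000282; errors of log2 fold changes below are SEs too). Mcm2 went from 21.1 ± 1.00 to 26.6 ± 1.41 CPM, 1.26-fold, or 0.33 ± 0.06 on the log2 scale (edgeR adjusted p = 0.000803). Mcm6 (chromosome 13) was at 15.7, 16.4 and 16.0 CPM in siCtrl and at 19.8, 19.9 and 17.7 CPM in siNONO, again without overlap, or 0.25 ± 0.07 on the log2 scale (edgeR adjusted p = 0.0101). Its call ended without siNONO replicate 1 (adjusted p = 0.0523).

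The remaining ring subunits were Mcm3, Mcm5 and Mcm7. Mcm3 (chromosome 9) was at 11.7, 12.2 and 12.2 CPM in siCtrl and 13.0, 13.4 and 13.9 CPM in siNONO, which did not overlap, with a log2 fold change of 0.16 ± 0.07 that did not pass (edgeR adjusted p = 0.102). It was called in 3 of 16 alternatives: total library size, log2(FPKM + 0.1), and log2(FPKM + 1) in genes of at least 1 FPKM in 3 libraries. Mcm5 (chromosome 19) had 0.16 ± 0.10 with overlapping groups. Mcm7 (chromosome 12), the most abundant subunit per length, had 24.7, 22.5 and 25.5 CPM in siCtrl and 23.3, 26.4 and 24.1 CPM in siNONO, a log2 fold change of 0.02 with a 95% interval from -0.12 to 0.16. That interval lies below the estimates for Mcm2, Mcm4 and Mcm6, though it overlaps the interval of Mcm6 (from 0.11 to 0.40). To set subunits against each other within a library, 6 count ratios were formed after the values were seen. Each set a raised gene over one that did not pass, so a separation was partly built in by the choice. The p-values of these ratios, here and below, do not correct for that choice and are description only. Mcm2 counts per Mcm7 count were 0.825, 0.988 and 0.811 in siCtrl and 1.09, 0.997 and 1.16 in siNONO, which do not overlap, although siCtrl replicate 2 nearly reached siNONO replicate 2 (two-sided exact permutation p = 0.1, below which groups of 3 and 3 cannot go; 0.12 after Benjamini-Hochberg adjustment over the 6 ratios). Mcm6 per Mcm7 was 0.638, 0.730 and 0.628 against 0.850, 0.754 and 0.734, with the same exact p. Mcm4 per Mcm7 overlapped between the groups, at 0.897, 1.09 and 0.867 in siCtrl and 1.28, 1.08 and 1.23 in siNONO (exact permutation p = 0.2, adjusted 0.2).

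**Figure D2:**
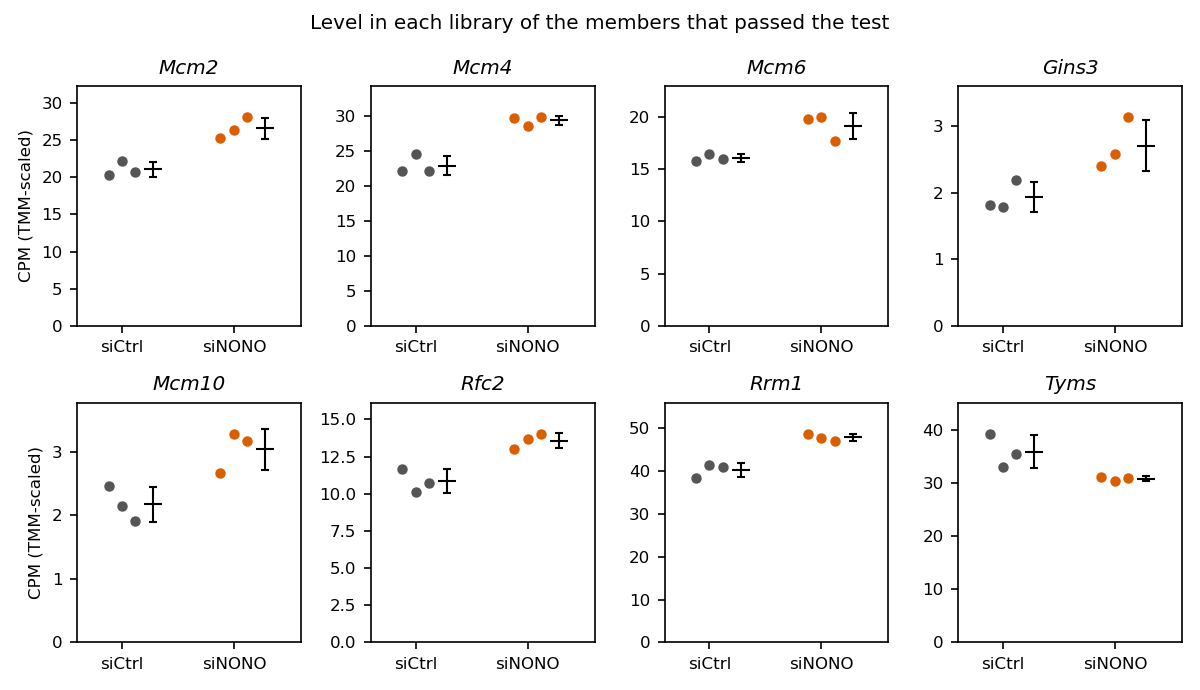
CPM (vertical axis, from 0) in each library for the 8 genes that passed the test; grey points are the siCtrl and orange points the siNONO replicates 1, 2 and 3 from left to right, and the bar beside them is the mean with its SD (n = 3). In all 8 panels the groups do not overlap, with Tyms the one gene lower in siNONO.

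Of the genes that recognise and license origins, 0 of 4 passed by edgeR's test, nor did any by the DESeq2 Wald test or limma-voom, and 0 had an unadjusted p under 0.05. Among all genes under 10 CPM, as these are, 8.93% rose and 9.36% fell. Orc6, a subunit of the origin recognition complex, was at 4.88, 5.94 and 4.91 CPM in siCtrl and 4.31, 5.44 and 4.74 CPM in siNONO (log2 fold change -0.11 ± 0.13). Orc1, its ATPase subunit, stood below 1 CPM in every library, with 14 to 33 counts, and its 95% interval ran from -0.90 to 0.41. The loaders were also thinly covered. Cdt1, which brings the MCM ring to the origin and had the lowest p of the 4, was at 2.08, 1.65 and 2.28 CPM in siCtrl and 2.24, 2.68 and 2.14 CPM in siNONO (0.22 ± 0.18; edgeR adjusted p = 0.368). Its log2 fold change was 0.10 with siCtrl replicate 2 left out, 0.11 with siNONO replicate 2 left out and 0.33 with siCtrl replicate 3 left out. Cdc6, the other loader, had 0.19 with an interval from -0.33 to 0.71.

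Among the factors that activate the helicase, Mcm10 and Gins3 rose and Cdc45, Gins1, Gins2 and Gins4 did not pass. All of them averaged under 10 CPM, a level at which 8.93% of all genes rose and 9.36% fell. Mcm10 (chromosome 17), which helps the helicase to start unwinding, was at 2.46, 2.14 and 1.91 CPM in siCtrl and 2.66, 3.28 and 3.16 CPM in siNONO, or 0.49 ± 0.16 on the log2 scale (edgeR adjusted p = 0.0296). Gins3 (chromosome 19), a subunit of the GINS complex, was at 1.82, 1.79 and 2.19 CPM in siCtrl and 2.40, 2.59 and 3.13 CPM in siNONO, or 0.48 ± 0.17 (edgeR adjusted p = 0.0448). Neither gene overlapped between groups, and these were the 2 largest fold changes of the 43 genes, at about 1.4-fold each. Both calls were fragile. Mcm10 was not called when any 1 of these libraries was left out: siCtrl replicate 2 (adjusted p = 0.0626), siCtrl replicate 3 (0.114), siNONO replicate 2 (0.0964) or siNONO replicate 3 (0.0897), nor with the DESeq2 Wald test (0.0637). Gins3 was not called without siCtrl replicate 1 (0.0987), siCtrl replicate 2 (0.116), siNONO replicate 2 (0.0671) or siNONO replicate 3 (0.187), nor with the DESeq2 Wald test (0.0911). The other GINS subunits had log2 fold changes of -0.13 (Gins1), 0.27 (Gins2) and -0.05 (Gins4). The groups did not overlap for Gins1, which was lower in siNONO at 1.53 to 1.58 CPM against 1.58 to 1.79 CPM, so the closest libraries were equal to 3 digits. Gins3 counts per Gins4 count were 0.231, 0.285 and 0.341 in siCtrl and 0.371, 0.394 and 0.463 in siNONO (exact permutation p = 0.1, adjusted 0.12). This pair was picked after the values were seen. Cdc45, which joins MCM and GINS in the moving helicase, had -0.11 with an interval from -0.52 to 0.31.

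None of the 8 polymerase and primase genes passed by edgeR's test (0 of 8 at the adjusted threshold), where 32.1% of all genes tested passed. All but Prim1 and Pold3 averaged under 10 CPM, a level at which only 8.93% of all genes rose and 9.36% fell. The DESeq2 Wald test and limma-voom also called 0 of 8, and 2 (Pold3 and Prim1) had an unadjusted p under 0.05 by edgeR. The gene with the lowest p was Pold3, an accessory subunit of the lagging-strand polymerase delta, at 11.8, 12 and 11.1 CPM in siCtrl and 13.0, 12.7 and 13.6 CPM in siNONO. These groups did not overlap, and the log2 fold change of 0.17 ± 0.07 had an adjusted p of 0.0813 by edgeR; with total library size it was 0.0318. Prim1, the catalytic subunit of the primase that lays down RNA primers, was at 19.1, 23.0 and 23.8 CPM in siCtrl and 23.6, 25.5 and 25.1 CPM in siNONO (0.17 ± 0.08; edgeR adjusted p = 0.101). Its low value in siCtrl replicate 1 set it apart from the other controls, and siCtrl replicate 3 lay within the siNONO range. Its partners in the primase complex had -0.08 (Prim2), -0.14 (Pola1) and -0.06 (Pola2). The catalytic subunits of the replicative polymerases had 0.07 (Pole, interval from -0.25 to 0.38) and -0.05 (Pold1, from -0.27 to 0.17), and the second epsilon subunit Pole2 had -0.20 (from -0.59 to 0.19).

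In the group of the sliding clamp and its loader, Rfc2 rose (1 of 7 genes, beside 16.2% raised and 15.9% lowered of all genes tested). The clamp itself stayed within a narrow interval. Rfc2 (chromosome 12), a small subunit of the loader that opens and closes the clamp, was at 11.7, 10.1 and 10.7 CPM in siCtrl and 13.0, 13.7 and 14 CPM in siNONO. All siNONO libraries were above all controls, at 1.25-fold, with or 0.33 ± 0.08 on the log2 scale (edgeR adjusted p = 0.00521). Pcna (chromosome 3), the clamp, was at 42.1, 41.1 and 39.9 CPM in siCtrl and 43.3, 41.6 and 38.3 CPM in siNONO, a log2 fold change of 0.00 with an interval from -0.11 to 0.11. The other loader subunits differed in sign: Rfc3 had 0.16 and Rfc5 0.19, whereas Rfc4 had -0.15. Rfc3 was higher in every siNONO library, at 9.51, 9.18 and 9.78 CPM against 8.08, 8.61 and 8.70 CPM, and did not pass (edgeR adjusted p = 0.144), although the 3 fits on FPKM called it. Rfc4 was lower in every siNONO library, at 10.2, 9.45 and 9.96 CPM against 11.4, 11 and 10.6 CPM, but did not pass (edgeR adjusted p = 0.142). Rfc2 counts per Rfc4 count were 1.03, 0.917 and 1.01 in siCtrl and 1.28, 1.45 and 1.41 in siNONO, without overlap (exact permutation p = 0.1, adjusted 0.12). This pair too was picked after the values were seen. The enzymes that finish Okazaki fragments had 0.08 (Fen1, the flap nuclease) and 0.00 (Lig1, the ligase, interval from -0.13 to 0.12).

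Of the 5 genes for deoxynucleotide supply, 1 rose and 1 fell, beside 16.2% raised and 15.9% lowered of all genes tested. Rrm1 (chromosome 1), the large subunit of ribonucleotide reductase, was at 38.3, 41.4 and 40.9 CPM in siCtrl and 48.6, 47.7 and 47.0 CPM in siNONO. It went from 40.2 ± 1.66 to 47.8 ± 0.799 CPM, or 0.25 ± 0.05 on the log2 scale (edgeR adjusted p = 0.00113). Its S-phase partner Rrm2, the small subunit, was at 9.90, 10.1 and 11.1 CPM in siCtrl and 9.97, 10.3 and 10.6 CPM in siNONO, with an interval from -0.18 to 0.16. Rrm1 counts per Rrm2 count were 3.87, 4.10 and 3.70 in siCtrl and 4.88, 4.6 and 4.42 in siNONO (exact permutation p = 0.1, adjusted 0.12). The pair was again picked after the values were seen. Tyms (chromosome 9), which makes thymidylate, was at 39.3, 33.1 and 35.4 CPM in siCtrl and 31.2, 30.4 and 31.0 CPM in siNONO, or -0.22 ± 0.06 on the log2 scale (edgeR adjusted p = 0.0129). The siCtrl libraries spread more than the siNONO libraries here (SD 3.13 against 0.438 CPM). The fall of Tyms did not pass on the FPKM scale (adjusted p = 0.130 with log2(FPKM + 1)). The thymidine kinase gene Tk1 had -0.03 and Dut, whose enzyme keeps uracil out of DNA, had -0.09 (interval from -0.24 to 0.06).

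None of the cyclin E and E2F genes passed by edgeR's test (0 of 5, also 0 of 5 by the DESeq2 Wald test and limma-voom, and 0 of 5 at an unadjusted p under 0.05). Among all genes under 10 CPM, as these are, 8.93% rose and 9.36% fell. Ccne2, which drives CDK2 at the G1/S step and had the lowest p of this group, was at 2.05, 1.55 and 2.28 CPM in siCtrl and 2.83, 2.17 and 2.40 CPM in siNONO (0.32 ± 0.19; edgeR adjusted p = 0.207). Its log2 fold change was 0.18 when siCtrl replicate 2 was left out and 0.21 when siNONO replicate 1 was, and up to 0.46 in the other fits with 1 library fewer, none of which called it. Its paralog Ccne1, which was more abundant, had -0.06 with an interval from -0.24 to 0.12. The activator E2f1 was at 5.51, 5.38 and 6.11 CPM in siCtrl and 5.36, 5.29 and 5.18 CPM in siNONO; the groups did not overlap, and the difference of -0.11 ± 0.10 did not pass. E2f2, another activator, had -0.22 and the repressor E2f8 0.25, the latter at 14 to 45 counts per library with an interval from -0.42 to 0.92. Uhrf1, which guides maintenance DNA methylation to replicated DNA, was at 4.35, 4.71 and 4.47 CPM in siCtrl and 4.64, 5.57 and 6.53 CPM in siNONO. Its difference of 0.31 ± 0.13 did not pass (edgeR adjusted p = 0.0871), and the value depended on single siNONO libraries. On leaving out siNONO replicate 1, the lowest siNONO value, it was 0.42 and passed (adjusted p = 0.0302), and on leaving out siNONO replicate 3, the highest, it was 0.18 (adjusted p = 0.369). Slbp, which binds the stem-loop of histone mRNAs, had -0.07 (interval from -0.19 to 0.05).

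**Figure D3:**
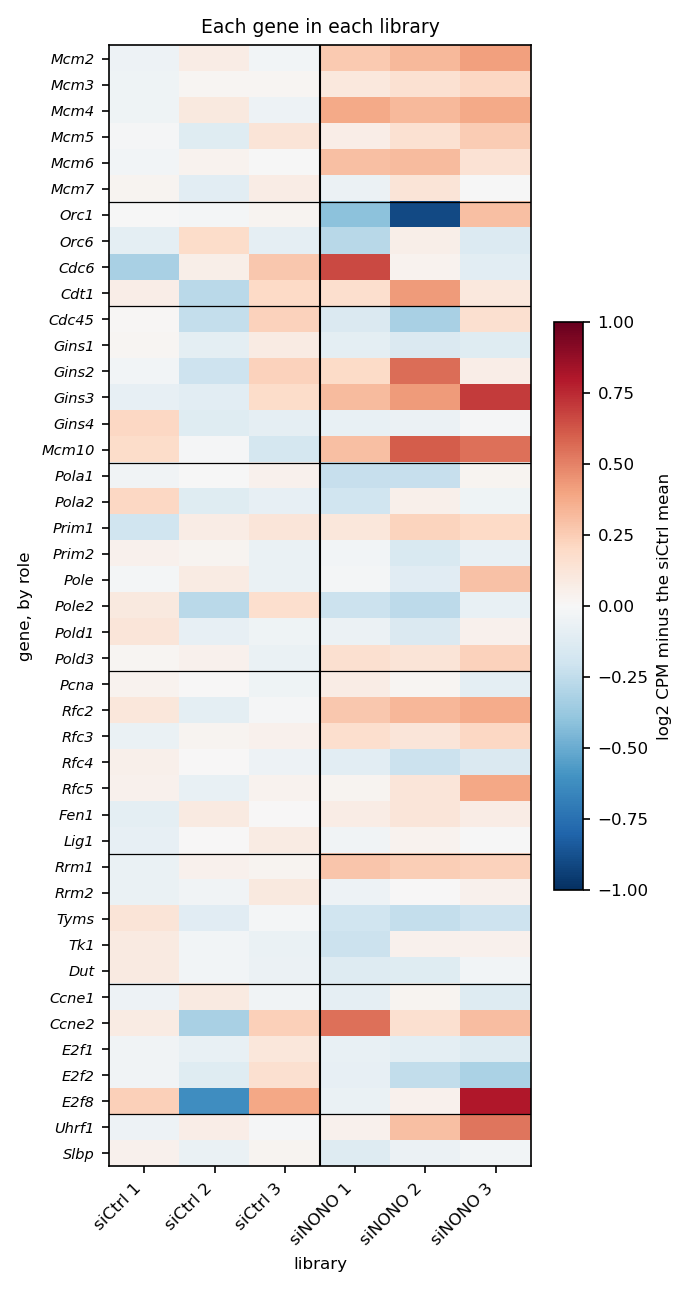
Each of the 43 genes (rows, in the order of their roles, separated by lines) in each of the 6 libraries (columns); colour is log2 CPM minus the mean of the siCtrl libraries. Mcm2, Mcm4, Mcm6, Mcm10, Gins3, Rfc2 and Rrm1 are above 0 in all siNONO libraries, as are several genes that did not pass, such as Mcm3 and Rfc3. The strongest single colours belong to sparse genes such as Orc1 and E2f8.

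Replicates of a group differed little for most of the 43 genes. The coefficient of variation (SD over mean) had a median of 6.18% in siCtrl and 6.47% in siNONO over these genes, against 6.13% and 5.12% over all genes tested, and ran up to 33.2% and 42.3%. The libraries were not equal in the direction of this spread. Within siNONO, replicate 3 had the highest value for 22 of the 43 genes, where it had the highest for 33.5% of all genes tested, and replicate 1 for 10. Within siCtrl, replicate 3 was highest for 19 genes (29.1% of all genes) and replicate 2 lowest for 20 (32.9% of all genes). The 43 genes together took 0.0456%, 0.0464% and 0.0467% of all counts in siCtrl and 0.0501%, 0.0503% and 0.0515% in siNONO, means of 0.0463% ± 0.000574 and 0.0506% ± 0.000756 (SD, n = 3 each). These shares are of raw totals, and a sum is set mostly by the abundant genes. The mean log2 CPM, which weights the genes equally, was 2.76, 2.69 and 2.79 in siCtrl and 2.78, 2.80 and 2.87 in siNONO, so that siNONO replicate 1 lay within the range of the controls.

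Per length, the genes differed far more from each other than between the conditions. On the deposited FPKM scale (fragments scaled to gene length and library size), Pcna led with 31.6 ± 0.645 FPKM in siCtrl (SD, n = 3), followed by Slbp (12.1 ± 0.388), Rrm1 (11.9 ± 0.652), Prim1 (10.8 ± 1.36) and Mcm7 (8.22 ± 0.476). Slbp, Rrm1 and Prim1 did not differ beyond their spread, whereas Pcna stood well above them. The lowest levels were those of E2f8 (0.133 ± 0.0473 FPKM), Orc1 (0.207 ± 0.00577), Mcm10 (0.237 ± 0.0252) and E2f2 (0.280 ± 0.0265). Of the 42 pairs of neighbours in this order, 30 were closer than the sum of their SDs. Subunits of 1 complex were not at equal levels. Within the MCM ring the siCtrl means ran from 1.76 FPKM (Mcm5) over 3.66 (Mcm3), 4.92 (Mcm6), 5.57 (Mcm2) and 6.12 (Mcm4) to 8.22 (Mcm7), a span of 4.67-fold. In siNONO Mcm4 reached 8.12 ± 0.237 FPKM beside 8.65 ± 0.524 for Mcm7. Among the polymerase and primase genes the span was 28.4-fold, from Pole (0.380 FPKM) to Prim1. FPKM depends on the gene lengths used by the authors, so levels of genes with several isoforms are approximate.

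**Figure D4:**
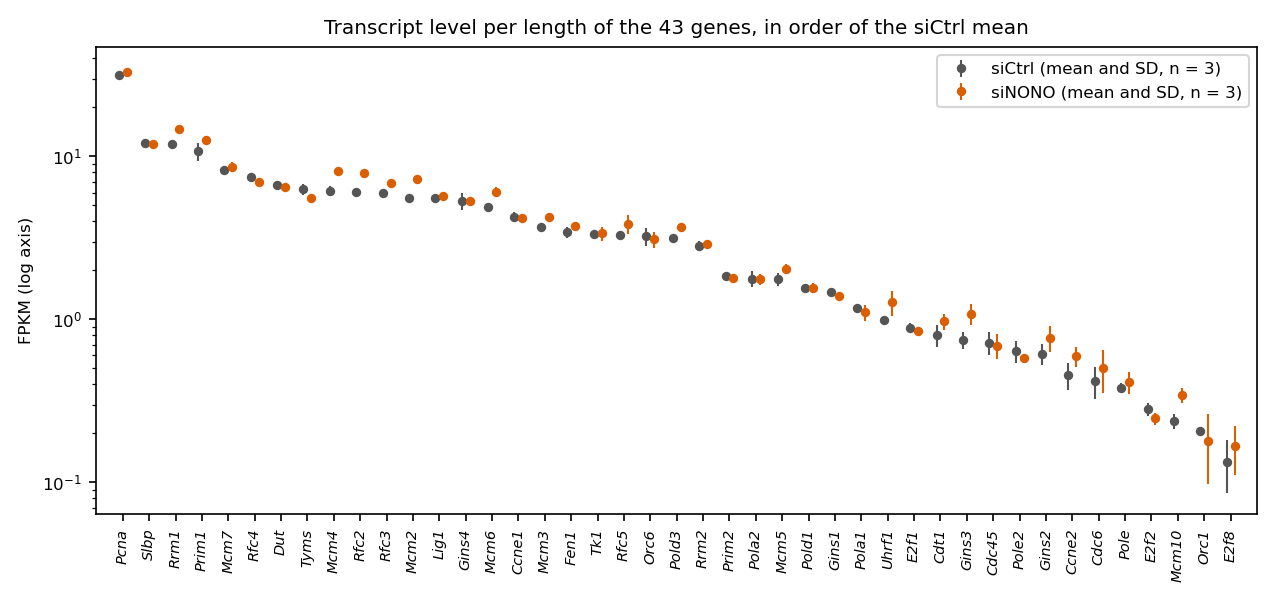
Level per length (vertical axis, FPKM on a log scale) of the 43 genes in the order of their siCtrl mean; points are means and lines the SD of 3 libraries, grey for siCtrl and orange for siNONO. Levels run from 31.6 FPKM for Pcna to 0.133 FPKM for E2f8 in siCtrl, and most orange points sit close to their grey partners.

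Beyond the 43 genes, 107 tested genes from 7 lists of partners in replication and the cell cycle were examined (108 listed; Dna2 was not matched by symbol), of which 23 rose and 13 fell (21.5% and 12.1%, beside 16.2% and 15.9% of all genes tested), with a median log2 fold change of 0.12. The raised count was 15 without siNONO replicate 1 and 12 without siNONO replicate 3. Of 16 origin and helicase partners, 1 rose and 0 fell. The raised gene was Ticrr, which helps to load CDC45, at 0.670, 0.598 and 0.586 CPM in siCtrl and 1.12, 1.02 and 0.966 CPM in siNONO and 17 to 34 counts per library (0.74 ± 0.24; edgeR adjusted p = 0.0283). That call ended in 5 of the 6 fits without 1 library, all but the one without siCtrl replicate 1 (adjusted p from 0.0537 to 0.096). Ticrr overlaps Kif7 in the RefSeq annotation of the assembly GRCr8, a gene at 20.1 CPM with a log2 fold change of 0.28, so its low counts are uncertain. The constitutive origin recognition subunits had log2 fold changes of -0.05 (Orc2), -0.13 (Orc3), 0.02 (Orc4) and -0.01 (Orc5), and none passed.

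Of 20 tested fork partners, 3 rose and 3 fell, close to the 16.2% raised and 15.9% lowered of all genes tested. Pole3 and Pole4, the small subunits that form a histone-fold pair in polymerase epsilon, moved in opposite directions. Pole3 was at 22.4, 23.1 and 23.3 CPM in siCtrl and 28, 29.1 and 28.6 CPM in siNONO (0.32 ± 0.05; edgeR adjusted p = 0.000355). Pole4 was at 26.9, 25.2 and 23.9 CPM in siCtrl and 21.5, 21.1 and 19.3 CPM in siNONO (-0.30 ± 0.06; edgeR adjusted p = 0.00297). Rpa1, the large subunit of the protein that coats single-stranded DNA, fell from 31.4 ± 1.88 to 24.2 ± 0.221 CPM (-0.38 ± 0.06; edgeR adjusted p = 0.000152), while Rpa2 had 0.15 and Rpa3 -0.24, neither past the threshold. Chtf8, a subunit of an alternative clamp loader, rose from 66.1 ± 0.475 to 93.2 ± 2.68 CPM (0.50 ± 0.04; edgeR adjusted p = 1.24e-06). Chtf8 overlaps the coding genes Derpc and Utp4 in the same annotation, so its counts are uncertain as well. The further calls were Rfc1, the large subunit of the clamp loader (0.14), and Pold4 (-0.23), a small subunit of polymerase delta, both named after their values were seen. Each of these calls depended on single libraries: Rfc1 lost its call when siCtrl replicate 2, siCtrl replicate 3, siNONO replicate 1 or siNONO replicate 3 was left out (adjusted p from 0.0714 to 0.168), and Pold4 when siCtrl replicate 1, siNONO replicate 1 or siNONO replicate 3 was (0.0775 to 0.106). Pold4 overlaps Rad9a in the annotation, and it was not called in any FPKM fit.

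Of 10 tested genes for replication-coupled chromatin, 2 rose, 2 fell and 6 did not pass, beside 16.2% raised and 15.9% lowered of all genes tested. Asf1a, a histone chaperone, was at 18.8, 19.8 and 18.7 CPM in siCtrl and 12.7, 12.7 and 13.3 CPM in siNONO (-0.57 ± 0.06; edgeR adjusted p = 1.65e-05). Its paralog Asf1b was at 2.72, 2.78 and 2.38 CPM in siCtrl and 3.98, 3.34 and 3.48 CPM in siNONO (0.46 ± 0.14; edgeR adjusted p = 0.0233), a call that ended on leaving out siCtrl replicate 3 (adjusted p = 0.0934) or siNONO replicate 1 (0.104); without the latter 1 gene of the list rose. Asf1a overlaps Mcm9 in the GRCr8 annotation. The histone chaperone gene Nasp rose by 0.21 ± 0.05 and Fam111a, a protease gene linked to replication, fell by 0.24 ± 0.05 on the log2 scale, a call lost with log2(FPKM + 1) and log2(FPKM + 0.1). Dnmt1, the maintenance methyltransferase that works with UHRF1, had 0.02 with an interval from -0.12 to 0.16.

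Among 12 nucleotide partners, 2 rose and 3 fell, beside 16.2% raised and 15.9% lowered of all genes tested. Rrm2b, the alternative small subunit of ribonucleotide reductase that is induced by p53 and serves cells outside S phase, was at 9.60, 11.3 and 10.8 CPM in siCtrl and 19.2, 17.4 and 17.7 CPM in siNONO (0.78 ± 0.08; edgeR adjusted p = 4.70e-06). Per length, Rrm2b went from 1.92 ± 0.180 to 3.41 ± 0.195 FPKM, whereas Rrm2 had 2.82 ± 0.189 and 2.91 ± 0.0907 FPKM, so the order of the small subunits differed between the conditions. Samhd1, which breaks down deoxynucleotides and is also known as an interferon-induced gene, rose from 6.44 ± 0.896 to 11.6 ± 0.845 CPM (0.85 ± 0.10; edgeR adjusted p = 3.48e-05). Shmt1 (-0.34 ± 0.06), an enzyme of the folate cycle that feeds thymidylate synthesis, and the nucleotide kinase gene Cmpk1 (-0.32 ± 0.04) fell, as did, named after its values were seen, the thymidylate kinase gene Dtymk (-0.27 ± 0.05). The raised count of this list was 4 without siCtrl replicate 1.

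Of 22 cyclin, CDK, RB and E2F partners, 5 rose, 3 fell and 14 did not pass, beside the 16.2% raised and 15.9% lowered of all genes tested. Ccnd3, cyclin D3, was at 186, 180 and 180 CPM in siCtrl and 96.8, 104 and 97.4 CPM in siNONO, or -0.87 ± 0.04 on the log2 scale (edgeR adjusted p = 9.21e-09), while cyclin D1 (Ccnd1, -0.15) and cyclin D2 (Ccnd2, 0.00) did not pass. Rb1, the retinoblastoma protein gene that restrains E2F, was at 21.1, 23.9 and 22.2 CPM in siCtrl and 17.5, 16.5 and 16.8 CPM in siNONO (-0.40 ± 0.06; edgeR adjusted p = 0.000286). Rb1 overlaps Lpar6 in the GRCr8 annotation, a gene at 10.5 CPM with a log2 fold change of -0.13, so its counts are uncertain as well. Mybl2 (0.37 ± 0.12), a transcription factor gene of the S and G2 phases, and Skp2 (0.37 ± 0.13), which targets the inhibitor p27 for degradation, were the largest rises. Both calls were fragile: Mybl2 lost its call without siCtrl replicate 1, siCtrl replicate 3 or siNONO replicate 3 (adjusted p from 0.0637 to 0.178), and Skp2 in all fits without 1 library except the one without siCtrl replicate 3 (0.0524 to 0.152). The raised count was 2 on leaving out siCtrl replicate 1, 3 on leaving out siCtrl replicate 3 or siNONO replicate 2, and 1 on leaving out siNONO replicate 3. Of 7 CDK inhibitor genes, 1 rose and 2 fell. Cdkn1c (p57) was at 3.68, 3.48 and 4.94 CPM in siCtrl and 9.999, 11.8 and 8.64 CPM in siNONO (1.32 ± 0.14; edgeR adjusted p = 1.05e-05). Cdkn2b (p15) fell from 49.6 ± 0.770 to 34.5 ± 0.944 CPM (-0.52 ± 0.05), and Cdkn1a (p21) from 274 ± 14.2 to 243 ± 8.22 CPM (-0.18 ± 0.05; edgeR adjusted p = 0.00995). The Cdkn1a call ended without siNONO replicate 1 (adjusted p = 0.0601) and was also lost with log2(FPKM + 1) and log2(FPKM + 0.1).

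Of 20 genes of G2 and mitosis, the phases that follow S phase, 9 rose and 0 fell, beside 16.2% raised and 15.9% lowered of all genes tested and 8.93% and 9.36% of those under 10 CPM. All 20 log2 fold changes were above 0, with a median of 0.26, where 7275 of the 14412 genes tested were above 0 and the median was 0.00. This list was chosen with earlier results of these data known, and whether it differs from the 43 genes was not tested. Cenpf, a kinetochore gene, had 0.50 ± 0.12, a call lost with log2(FPKM + 1) and log2(FPKM + 0.1), and Ttk, a spindle checkpoint kinase gene, 0.47 ± 0.12. The raised count was 5 without siNONO replicate 1 and 4 without siNONO replicate 3. Mki67, the common marker of cycling cells, was at 13.1, 18.4 and 16.7 CPM in siCtrl and 17.8, 16.2 and 19.0 CPM in siNONO, which overlapped (0.14 ± 0.10), and Cdk1 had 0.03 ± 0.10.

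**Figure D5:**
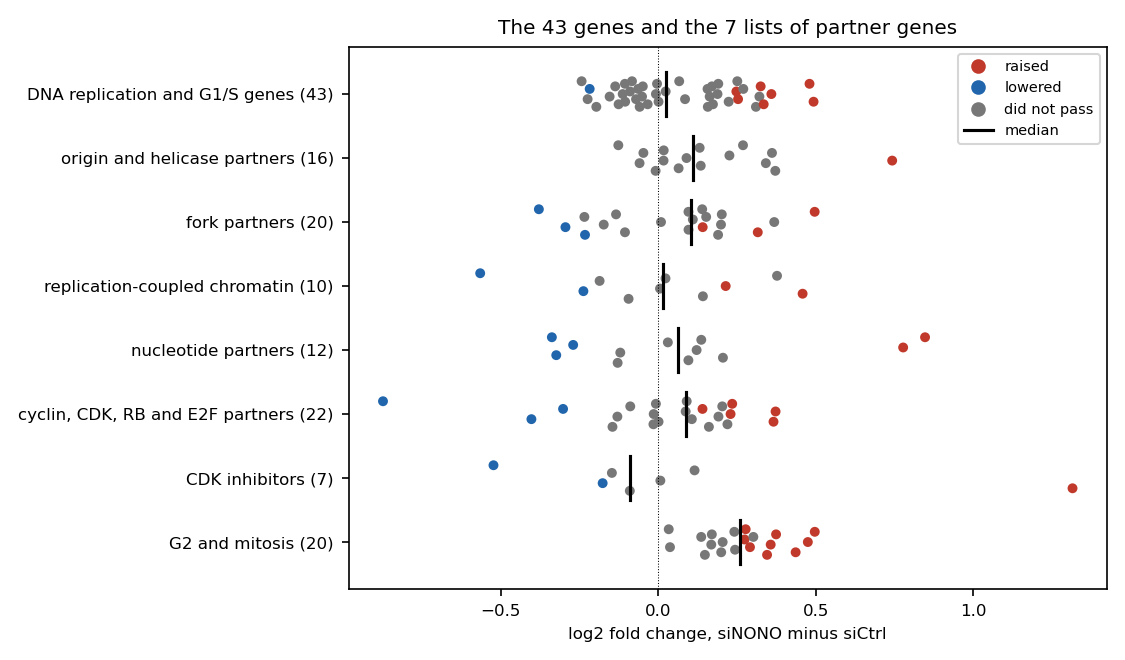
Log2 fold change (horizontal axis, siNONO minus siCtrl) of the 43 replication and G1/S genes (top row) and of the tested genes of each of the 7 partner lists; each point is a gene, red if raised, blue if lowered, grey if it did not pass, and the black line is the median. The median is 0.02 for the 43 genes and 0.26 for the G2 and mitosis list, in which no point lies below 0.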

How the data were processed

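RNA was sequenced from 3 siCtrl and 3 siNONO libraries; groups follow the titles. The submitters' processing notes list HISAT2, edgeR and the build mRatBN7.2. Tool versions, the read counter and whether it used strand: not given in the sources used here. The deposited count table holds unnormalized whole numbers for each gene, judged from its values. The deposited FPKM values were scaled by the authors for gene length and library size. There were 0 columns of other samples. In R 4.3.3 with edgeR 4.0.16, genes passing filterByExpr (14412) were scaled by TMM and tested by the quasi-likelihood test, two-sided, with Benjamini-Hochberg adjustment over all of them; the common biological coefficient of variation was 4.82%. SE is the log2 fold change over the square root of F; intervals are 95%. A count of 0 allows up to 3 counts, 0.0899 to 0.108 CPM. Alternatives used limma 3.58.1 and DESeq2 1.42.0. The fits were tested on simulated data with far fewer changed genes than were called here, so that run does not give their error rate in these data. Figures were drawn with matplotlib 3.10.9.

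The 43 members and all lists were chosen with earlier results of these data known. By the naming rule, members past the threshold and the lowest p of each role were given in every library, as were up to 2 rises and 2 falls per partner list; other names were added for context. Without strand, overlapping genes cannot be told apart: in the GRCr8 annotation 7 members (Gins2, Pole2, Fen1, Lig1, Rrm2, Ccne2 and Uhrf1) overlap a coding gene, and 0 of the 8 called ones do. No sequences or positions are printed.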

Additional observations from a re-analysis of the deposited data

How the results depend on the processing

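Of 35 genes named by the naming rule, 22 kept their direction and their side of the threshold under every alternative at 0.05 that gave them a value (the filter of 1 FPKM left out Cdt1, Ccne2 and Ttk among others), and 0 reversed. Mcm2, Mcm4, Rfc2 and Rrm1 were the members that kept their calls in every alternative, including the threshold of 0.01, where 4 members rose and 0 fell, 11 partner genes rose, and 1428 genes in all rose and 1424 fell. With total library size 11 members rose. With log2(FPKM + 0.1), log2(FPKM + 1) and log2(FPKM + 1) in genes of at least 1 FPKM in 3 libraries, 0 members fell in each, and 1247, 1264 and 1424 genes fell in all; raised genes were 2246, 2233 and 2687. With the DESeq2 Wald test 15 partner genes rose. Without 1 library each, 5 to 7 members rose and 1 fell, 12 to 21 partner genes rose and 11 to 15 fell, 1675 to 2243 genes rose and 1694 to 2143 fell, and the members took 0.0460% to 0.0466% of counts in siCtrl and 0.0502% to 0.0509% in siNONO. The cause of these shifts was not tested. Deviations of same-numbered libraries did not go together (correlations -0.105, -0.179 and -0.00121), and no library correlated best with its own number. These correlations cannot show whether same-numbered libraries were matched by design. With the replicate block 5 members rose and 1 fell (Gins3 and Mcm10 lost their calls). In that fit 18 partner genes rose and 13 fell, and 1894 genes rose and 1863 fell in all.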
